A study of Mus musculus with 6 samples.

Results

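The genes described are a set of Toll-like receptors in mouse bone marrow-derived macrophages (Tlr1, Tlr2, Tlr3, Tlr4, Tlr6, Tlr7, Tlr8, Tlr9 and Tlr13) and the co-receptor gene Cd14. They were taken by symbol from the gene table, as 10 of its 45706 genes, and all 10 passed the filter on low counts that left 12224 genes for testing. Tlr5, which also passed that filter, is not among the 10 and is described separately. RNA-seq was made from primary macrophages of mouse bone marrow in 3 groups of 2 libraries each: untreated cells at day 0, cells 1 day after RANKL, and cells 1 day after RANKL together with sodium acetate. RANKL is the cytokine that drives macrophage precursors towards osteoclasts, the bone-resorbing cells, and acetate is a short-chain fatty acid. The sources used here state no doses and no strain or age of the mice. No group of day 1 cells without RANKL and no group with another sodium salt was analysed here, so that a day of culture cannot be told apart from RANKL, nor sodium from acetate. The labels do not say whether the 2 libraries of a group came from separate cultures or animals, and p-values therefore measure only the spread between these libraries, which may be technical.

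Toll-like receptors are membrane proteins that recognise molecules of microbes and signal through the adaptors MyD88 and TRIF to NF-kB and interferon regulatory factors. TLR1, TLR2, TLR4 and TLR6 sit at the cell surface and bind lipopeptides and lipopolysaccharide (LPS), while TLR3, TLR7, TLR8, TLR9 and TLR13 sense nucleic acids in endosomes. CD14 is a membrane-anchored protein that hands LPS to TLR4 with its partner MD-2 and also serves other Toll-like receptors, and macrophages carry most of these receptors.

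Expected counts over all genes came to between 9997527 and 11254961 per library. The summed CPM (counts relative to the TMM-scaled library size) of 8 macrophage marker genes was 17800 to 18100 at day 0, 5690 to 5760 after RANKL, and 12000 to 12200 when acetate was added. For 8 osteoclast marker genes the sums were 26.1 to 26.4, 2540 to 2550 and 590 to 618, with Calcr at 0 in every library. B cell markers, 6 genes led by Ighm, summed to 21.6 to 28.7 CPM at day 0, 2.83 to 3.32 with RANKL and 4.07 to 4.88 with acetate. Dendritic cell markers, 8 genes, mostly Bst2 and Tcf4, summed to 406 to 418, 258 to 272 and 388 to 409 CPM, and 7 neutrophil markers to 215 to 222, 164 to 166 and 159 to 164. Stromal markers, 6 genes, summed to between 5.94 and 13.7 CPM in all libraries, and T or NK cell, mast cell and erythroid lists stayed at or under 1.19, with 4 of 6, 3 of 5 and 2 of 4 genes at 0. The part of these other cells in the values given for the receptors was not tested. In such bulk RNA, fewer cells of a type and less RNA per cell cannot be told apart.

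One day after RANKL, 9 of the 10 genes had fallen from their day 0 level, and Tlr9 alone was not called. With acetate beside RANKL, the same 9 genes rose above their level with RANKL alone. Against day 0, the acetate libraries were still lower for Tlr1, Tlr4, Tlr6, Tlr7, Tlr8 and Tlr13, higher for Cd14, and not called for Tlr2, Tlr3 and Tlr9. A gene was called at an adjusted p under 0.05 by edgeR's quasi-likelihood test over all 12224 genes. Of all genes tested, RANKL changed 66.3% (33.5% lowered and 32.8% raised). Acetate beside RANKL changed 30.4% (16.7% raised and 13.7% lowered). Between the acetate libraries and day 0, 60.7% differed (30.4% lowered and 30.3% raised). The median log2 fold change of the 10 genes was -2.21 for RANKL against day 0, 1.21 for RANKL with acetate against RANKL, and -1.43 for RANKL with acetate against day 0. Over all genes tested these medians were 0.01, 0.00 and 0.00. No gene of the 10 was raised by RANKL or lowered by acetate, a count of 0 also at an unadjusted p under 0.05 and by DESeq2 and limma-voom. The first contrast and the second share the RANKL libraries, the first and the third the day 0 libraries, and the second and the third the acetate libraries. A gene's values in them are therefore not independent, and the third log2 fold change is the sum of the other 2.

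**Figure D1:**
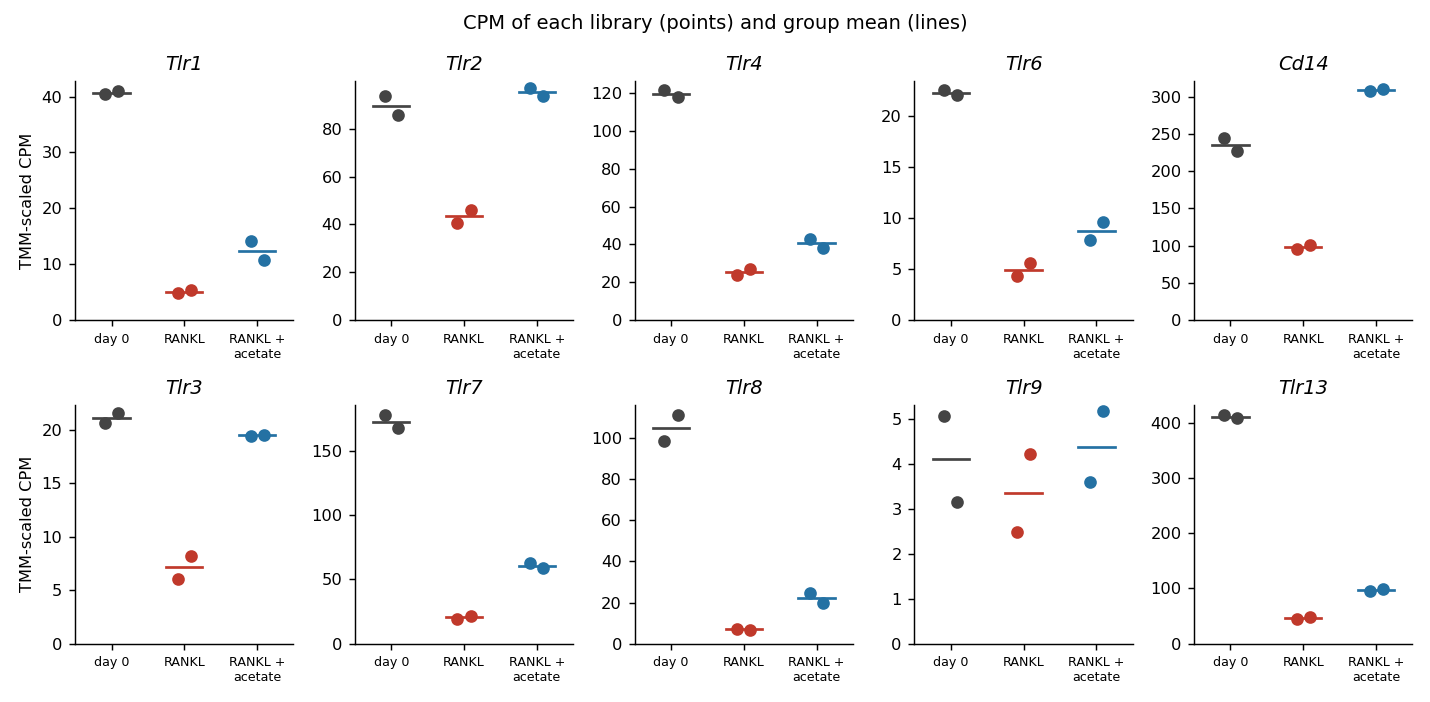
TMM-scaled CPM (vertical axis, from 0) of each of the 10 genes in the day 0, RANKL and RANKL with acetate libraries; points are libraries and lines the means of 2. In 9 of 10 panels both RANKL points lie under both day 0 points and both acetate points, while in the Tlr9 panel the 3 groups overlap.

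Among the surface receptors, Tlr2, the shared chain of the heterodimers that bind bacterial lipopeptides, stood at 93.8 and 85.6 CPM at day 0, 40.5 and 46.2 after RANKL alone, and 97.1 and 93.8 when acetate was added. The RANKL libraries were low and the other groups met at 93.8 CPM. Tlr2 (chr3:83836272-83841767, minus strand, GENCODE M21 on GRCm38, as for all genes here) fell 2.07-fold with RANKL (log2 fold change -1.05 ± 0.07, SE, adjusted p = 1.49e-14). It rose 2.20-fold with acetate beside RANKL (1.14 ± 0.07, adjusted p = 9.09e-15). Against day 0, the difference of the acetate libraries was 0.09 ± 0.07 and was not called (adjusted p = 0.264).

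Tlr1, which pairs with TLR2 for triacylated lipopeptides, was at 40.4 and 41.0 CPM at day 0, 4.77 and 5.39 with RANKL, and 14.2 and 10.7 with acetate. No groups overlapped, and the acetate group had the widest spread (12.4 ± 2.49 CPM, SD, n = 2). Its change was -2.996 ± 0.15 with RANKL, or 7.98-fold lower (adjusted p = 1.15e-18), and 1.28 ± 0.18 with acetate beside RANKL, or 2.44-fold higher (adjusted p = 4.81e-07). Against day 0 the acetate libraries were 3.28-fold lower (-1.71 ± 0.13, adjusted p = 1.63e-13). Tlr6, which pairs with TLR2 for diacylated lipopeptides, was at 22.5 and 22.04 CPM, then 4.32 and 5.55, and 7.81 and 9.55 with acetate. Again the groups did not overlap, and the order was day 0, acetate, RANKL from high to low. Tlr6 fell 4.53-fold with RANKL (-2.18 ± 0.17, adjusted p = 2.88e-13) and rose 1.77-fold with acetate (0.82 ± 0.20, adjusted p = 0.00135), and it stayed 2.56-fold under day 0 (-1.35 ± 0.16). The rise of Tlr6 was not called on the deposited TPM or FPKM, where limma gave adjusted p from 0.724 to 0.751. Those values carry the short transcript Tlr6-202 of 446 bases, which took 27.3% to 75.3% of the gene's TPM on 1.73 to 15.2 expected counts. On the full-length transcript Tlr6-201 the TPM was 8.48 and 8.27 at day 0, 1.49 and 2.06 with RANKL, and 3.04 and 3.44 with acetate.

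Tlr1 (chr5:64924679-64933563) and Tlr6 (chr5:64952031-64960097) lie on the minus strand, 18467 bases apart, and share sequence, so that reads can be split between them. They were the only members whose expected counts were not whole in each library, while their sum was whole, at 635 and 602 counts at day 0, 106 and 122 with RANKL and 227 and 207 with acetate. The transcripts Tlr1-201 and Tlr6-201 share 454 runs of 50 bases, 16.6% of those in Tlr1-201. Their longest identical stretch is shown because it marks where a read cannot be assigned to either gene. It is 229 bases of coding sequence, at chr5:64925537-64925765 in exon 3 of 3 of Tlr1-201 and at chr5:64953828-64954056 in exon 2 of 2 of Tlr6-201 (GRCm38, minus strand, from the GENCODE M21 transcripts, with no capitals because every base is identical).
Tlr1-201 and Tlr6-201: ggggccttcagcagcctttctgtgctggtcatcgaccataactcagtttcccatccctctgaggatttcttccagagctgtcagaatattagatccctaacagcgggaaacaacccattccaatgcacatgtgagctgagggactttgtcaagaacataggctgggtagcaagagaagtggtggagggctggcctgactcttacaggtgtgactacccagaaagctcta
Counted together, which removes the ambiguity between them, they fell by 2.65 on the log2 scale with RANKL (adjusted p = 1.02e-20) and rose by 1.08 with acetate (adjusted p = 3.7e-08), a choice made after seeing the data.

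Tlr4, the receptor for LPS, was at 121.5 and 118.0 CPM at day 0, 23.9 and 26.7 with RANKL, and 42.9 and 38.2 with acetate. The acetate libraries lay above both RANKL libraries and far below both day 0 libraries. Tlr4 (chr4:66827584-66930284, plus strand) fell 4.73-fold with RANKL (-2.24 ± 0.08, adjusted p = 5.02e-23). Its rise with acetate, 1.60-fold (0.68 ± 0.09, adjusted p = 2.55e-07), was the smallest among the 9 called genes. Relative to day 0 it stayed 2.95-fold lower (-1.56 ± 0.07, adjusted p = 4.81e-19).

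Cd14 (chr18:36725067-36726798, minus strand) was at 244.1 and 227.6 CPM at day 0, 95.2 and 101.2 with RANKL, and 307.7 and 310.5 with acetate. Here the acetate libraries were the highest of all, above both day 0 libraries. Cd14 fell 2.40-fold with RANKL (-1.26 ± 0.05, adjusted p = 1.4e-21) and rose 3.15-fold with acetate beside RANKL (1.65 ± 0.05, adjusted p = 6.03e-24). It was the 1 member called higher with acetate than at day 0, by 1.31-fold (0.39 ± 0.05, adjusted p = 3.6e-09). Thus the LPS receptor and its co-receptor moved the same way in both contrasts but stood, with acetate, at 33.9% and 131% of their day 0 means.

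Among the endosomal receptors, Tlr13, a receptor of mice for bacterial ribosomal RNA that humans lack, had the highest CPM of all 10 genes at day 0, 414.0 and 408.0. It was at 44.0 and 48.6 CPM with RANKL and at 95.0 and 99.8 with acetate. The 3 groups were far apart and each pair of libraries close together. Tlr13 (chrX:106143204-106160493, plus strand) fell 8.88-fold with RANKL (-3.15 ± 0.05, adjusted p = 5.14e-32), rose 2.11-fold with acetate (1.07 ± 0.06, adjusted p = 4.51e-16), and stayed 4.22-fold under day 0 (-2.08 ± 0.05, adjusted p = 1.58e-27).

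Tlr7, a receptor for single-stranded RNA, was at 177.6 and 167.1 CPM at day 0, 19.5 and 21.4 with RANKL, and 62.3 and 58.8 with acetate. Its groups did not overlap. Tlr7 (chrX:167304929-167330558, minus strand) fell 8.44-fold with RANKL (-3.08 ± 0.07, adjusted p = 9.8e-28) and rose 2.96-fold with acetate (1.57 ± 0.08, adjusted p = 8.81e-17), ending 2.85-fold under day 0 (-1.51 ± 0.06, adjusted p = 1.52e-20). Tlr8, its close relative, which in humans senses RNA breakdown products, was at 98.7 and 110.9 CPM, then 7.03 and 6.82, and 24.8 and 19.6 with acetate. Its RANKL libraries held 82 and 76 counts, against 997 and 1060 at day 0. Tlr8 (chrX:167242696-167264329, minus strand, 40599 bases from Tlr7) fell 15.1-fold with RANKL (-3.92 ± 0.11, adjusted p = 1.92e-25), and 0.826% of the genes tested had a lower log2 fold change. It rose 3.21-fold with acetate (1.68 ± 0.14, adjusted p = 1.54e-11) and stayed 4.71-fold under day 0 (-2.24 ± 0.09). The transcripts of Tlr7 and Tlr8 compared, Tlr7-201 and Tlr8-202, share no run of 50 bases.

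Tlr3, the receptor for double-stranded RNA, which signals through TRIF, was at 20.6 and 21.6 CPM at day 0, 6.09 and 8.16 with RANKL, and 19.4 and 19.5 with acetate. The acetate libraries lay just under both day 0 libraries. Tlr3 (chr8:45395665-45411080, minus strand) fell 2.96-fold with RANKL (-1.57 ± 0.16, adjusted p = 8.1e-11) and rose 2.74-fold with acetate (1.45 ± 0.16, adjusted p = 3.02e-09). Against day 0 the difference was -0.11 ± 0.13 and was not called (adjusted p = 0.484), and on the deposited FPKM it was 0.01. An antisense gene, Gm45542, overlaps exons of Tlr3 in GENCODE M21. It had no value used here, and the sources used here do not state the strand setting of the counting.

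Tlr9, the receptor for unmethylated CpG DNA, was at 5.05 and 3.14 CPM at day 0, 2.49 and 4.22 with RANKL, and 3.59 and 5.18 with acetate. These are 29 to 53 expected counts per library, and all groups overlapped. Its differences were -0.30 ± 0.31 with RANKL (adjusted p = 0.41) and 0.39 ± 0.31 with acetate beside RANKL (adjusted p = 0.371). Against day 0 the acetate libraries differed by 0.09 ± 0.30 (adjusted p = 0.82). None of these was called, and which size of difference could be detected was not computed, so a change of Tlr9 is not excluded. The sign of its differences rests on single libraries: with RANKL it was 0.09 without replicate 1 of day 0 and 0.04 without replicate 1 of RANKL, and the acetate libraries against day 0 differed by -0.20 without replicate 2 of day 0 and by -0.19 without replicate 2 of RANKL with acetate. Tlr9 lies at chr9:106222598-106226883 on the plus strand.

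Set against the day 0 mean, the 10 genes spread widely in both later groups. With RANKL the called genes lay between 6.60% (Tlr8) and 48.3% (Tlr2) of day 0. With acetate they ranged from 21.2% for Tlr8 and 23.7% for Tlr13, through 30.6% for Tlr1, 33.9% for Tlr4, 35.1% for Tlr7 and 39.0% for Tlr6, to 92.3% for Tlr3, 106.4% for Tlr2 and 131% for Cd14. No gene lay between 39.0% and 92.3%. Surface and endosomal receptors were found on both sides of that gap. Among the 10 genes, Tlr8 and Cd14 had the largest rises with acetate, 3.21-fold and 3.15-fold, and their falls with RANKL were 15.1-fold and 2.40-fold.

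**Figure D2:**
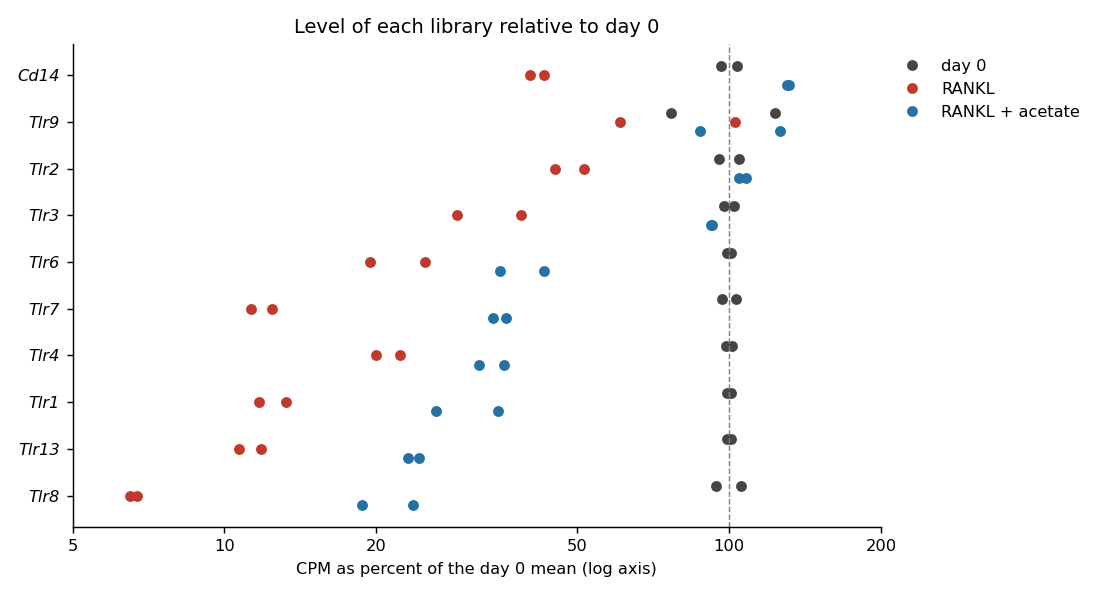
CPM of each library as a percent of the gene's day 0 mean (log axis), with 1 row per gene and colours for day 0, RANKL and RANKL with acetate. The acetate points of Tlr2, Tlr3, Tlr9 and Cd14 lie near or above 100, and those of the other 6 genes lie under 50.

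Promoter sequence from RefSeq was examined for 7 of the 10 genes, with 9 starts (GRCm38.p6). Tlr4, Tlr7 and Cd14 were not searched, so no motif can be given for Cd14, the gene called above day 0 with acetate. The 250 bases before each start were searched on both strands for 4 motifs: an NF-kB motif, AP-1 (TGANTCA), an interferon response core (GAAA, any 2 bases, GAAA) and a PU.1 core (GAGGAA). Stretches of 5 genes are shown because they lie beside the 3 receptors whose acetate level was not called different from day 0 (Tlr2, Tlr3 and Tlr9) and the pair furthest below it (Tlr8 and Tlr13), with motif letters in capitals. They are chr3:83841768-83841858 (minus strand) for Tlr2, chr8:45410572-45410601 (minus) for Tlr3, chr9:106222348-106222597 (plus) for Tlr9, chrX:167264330-167264579 (minus) for Tlr8 and chrX:106143025-106143203 (plus) for Tlr13.
Tlr2, NF-kB motif: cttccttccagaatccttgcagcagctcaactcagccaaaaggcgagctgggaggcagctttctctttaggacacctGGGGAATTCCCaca
Tlr3, NF-kB motif: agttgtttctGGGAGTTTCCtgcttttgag
Tlr9, PU.1 core and then AP-1 motif: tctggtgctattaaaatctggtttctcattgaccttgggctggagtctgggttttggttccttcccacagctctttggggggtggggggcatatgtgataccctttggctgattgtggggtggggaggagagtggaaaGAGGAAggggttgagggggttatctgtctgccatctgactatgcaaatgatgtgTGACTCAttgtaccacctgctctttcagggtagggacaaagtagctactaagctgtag
Tlr8, PU.1 core on the reverse strand: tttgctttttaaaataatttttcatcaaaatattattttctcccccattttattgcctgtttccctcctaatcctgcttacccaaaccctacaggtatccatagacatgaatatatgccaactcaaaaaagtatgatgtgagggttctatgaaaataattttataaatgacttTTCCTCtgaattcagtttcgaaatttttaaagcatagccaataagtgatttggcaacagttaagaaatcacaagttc
Tlr13, PU.1 core: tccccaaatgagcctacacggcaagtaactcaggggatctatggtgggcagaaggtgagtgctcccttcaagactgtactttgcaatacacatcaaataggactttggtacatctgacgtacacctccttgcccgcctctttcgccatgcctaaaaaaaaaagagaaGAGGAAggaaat
In Tlr2, a pair of overlapping NF-kB matches spans 173 to 163 bases before the RefSeq start. That start lies inside the GENCODE gene, whose own start is at chr3:83841767. The stretch shown ends just before the GENCODE start, so the matches lie nearer to it than to the RefSeq start. In Tlr3 the match lies 211 to 202 bases before the RefSeq start, inside exon 1 of the GENCODE transcripts. The NF-kB motif was found in no other of the 9 windows, and in 7.25% of 32851 promoters of this length. The PU.1 core lies 77 to 72 bases before the RefSeq start in Tlr8, 83 to 78 in Tlr13 and 112 to 107 in Tlr9. It also occurs before Tlr1 and is in 23.3% of all promoters. The RefSeq start of Tlr13 also lies inside the GENCODE gene, which starts at chrX:106143204. The Tlr13 stretch shown ends just before that base, so its core lies nearer to the GENCODE start. Tlr9 also holds an AP-1 match, 58 to 52 bases before its start, found in 6.75% of promoters, and 1 of the windows of Tlr6 a pair of overlapping interferon response cores, found in 2.98%. That Tlr6 window (chr5:64959167-64959416) lies inside the GENCODE gene. For it and the Tlr1 windows, the bases after the RefSeq start were not found near the start of a GENCODE transcript of the gene. Whether matches in these windows lie before a start in use is thus uncertain. A match describes letters and shows no binding. The stretches shown were picked by the levels in these same libraries, and a link between motif and acetate level was not tested.

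Levels can be compared between genes only per length, and for this the deposited TPM of transcripts of at least 1000 bases were summed. At day 0 the order of mean TPM was Cd14 (245.8), Tlr13 (148.8), Tlr7 (67.6), Tlr2 (44.7), Tlr8 (43.8), Tlr4 (43.1), Tlr1 (20.8), Tlr6 (8.38), Tlr3 (7.28) and Tlr9 (1.75). Tlr2, Tlr8 and Tlr4 did not differ beyond their spread (SD 2.56, 3.54 and 0.601, n = 2). The rank of Tlr8 depends on the limit of 1000 bases, since shorter transcripts held 39.6% and 48.0% of its deposited gene TPM at day 0. With them included, Tlr8 was at 68.3 and 89.0 TPM, above both Tlr2 (46.5 and 42.9) and Tlr4 (45.2 and 42.7) and overlapping Tlr7 (80.8 and 90.6). Over the short transcripts too, the mean gene TPM of Tlr8 was 5.19 with RANKL and 15.03 with acetate, and that of Tlr6 was 18.4 at day 0 and 5.42 with RANKL. With RANKL, Cd14 (102.3) and Tlr2 (21.6) led, followed by Tlr13 (16.8), Tlr4 (9.17) and Tlr7 (8.07), and Tlr3 (2.13 and 2.83) overlapped Tlr1 (2.52 and 2.67). With acetate the order was Cd14 (317.6), Tlr2 (47.0), Tlr13 (34.8), Tlr7 (23.4), Tlr4 (14.4), Tlr8 (9.42), Tlr3 (6.84), Tlr1 (6.24), Tlr6 (3.24) and Tlr9 (1.85), with Tlr3 and Tlr1 overlapping. By either TPM, the receptor with the highest mean was Tlr13 at day 0 and Tlr2 in both RANKL groups.

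Summed over the endosomal receptors, TPM was 268.9 and 269.4 at day 0, 29.96 and 33.5 with RANKL, and 77.3 and 75.5 with acetate. For the surface receptors the sums were 119.8 and 114.4, then 33.1 and 37.2, and 73.4 and 68.5. The endosomal sum was thus above the surface sum in both day 0 libraries, below it in both RANKL libraries, and above it again in both acetate libraries. Cd14 made up 38.3% to 39.5% of the TPM of the 10 genes at day 0, 59.7% to 61.3% with RANKL and 67.8% to 68.9% with acetate, while Tlr13 went from 23.2% to 23.9% down to 9.86% to 9.97% and 7.28% to 7.71%.

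**Figure D3:**
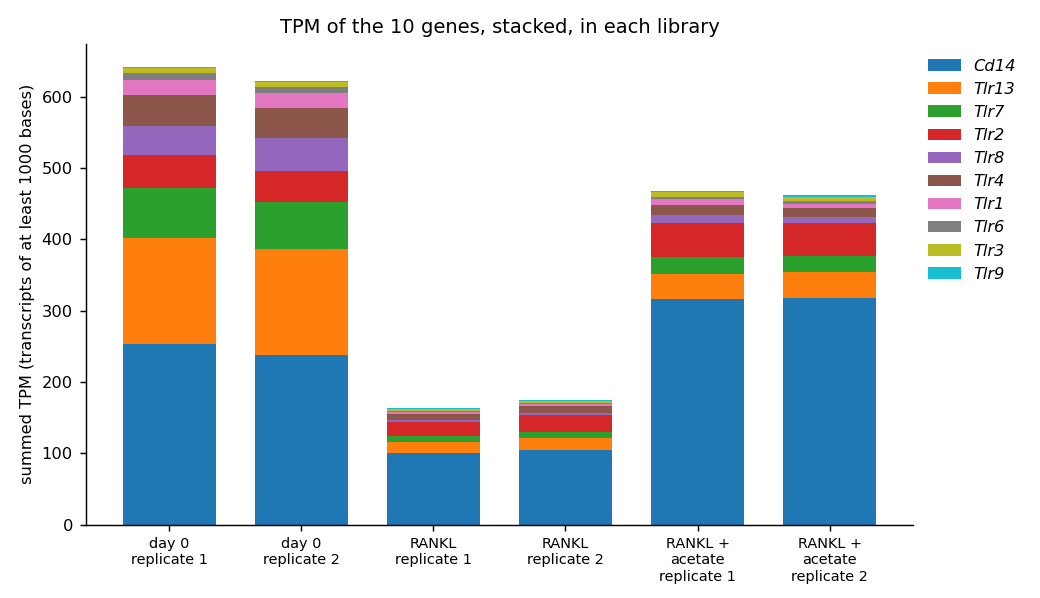
Stacked TPM of the 10 genes (transcripts of at least 1000 bases) in each of the 6 libraries, with 1 colour per gene. The stacks total 622 to 642 at day 0, 163 to 175 with RANKL and 462 to 467 with acetate, and Cd14 forms most of the acetate stacks.

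Of 9 Tlr3 transcripts in GENCODE M21, 2 were quantified, and their estimated shares differed between libraries. In GENCODE M21, Tlr3-202 carries the same first exon as Tlr3-201 but skips its exon 2 (chr8:45409796-45409990, 195 bases). It thus has 6 exons in place of 7, and its last exon ends earlier. The deposited estimates used other lengths, 4327 bases for Tlr3-201 (4407 in GENCODE M21) and 3955 for Tlr3-202. The exons behind the counts may therefore differ from these. The expected counts of Tlr3-201 were 164.2 and 164.6 at day 0, 54.9 and 61.7 with RANKL, and 78.3 and 120.9 with acetate. Those of Tlr3-202 were 43.8 and 41.4, then 16.1 and 29.3, and 121.7 and 79.1. The share of Tlr3-202 was thus 21.1% and 20.1% at day 0, 22.6% and 32.2% with RANKL, and 60.9% and 39.5% with acetate. The acetate shares lay above all others but differed from each other by more than the other groups did. With 2 libraries against 2, an exact two-sided permutation test cannot give a p under 0.333, and the shares are RSEM estimates whose own error is not stated. Such shares can swing within a group. Tlr1-201 held 73.5% and 21.1% of the Tlr1 counts at day 0, 58.9% and 4.24% with RANKL, and 66.1% and 15.5% with acetate. In each group the higher share was that of replicate 1, and the cause was not tested. For Tlr7-201 the share of its gene was steadier, from 68.5% to 90.3%.

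**Figure D4:**
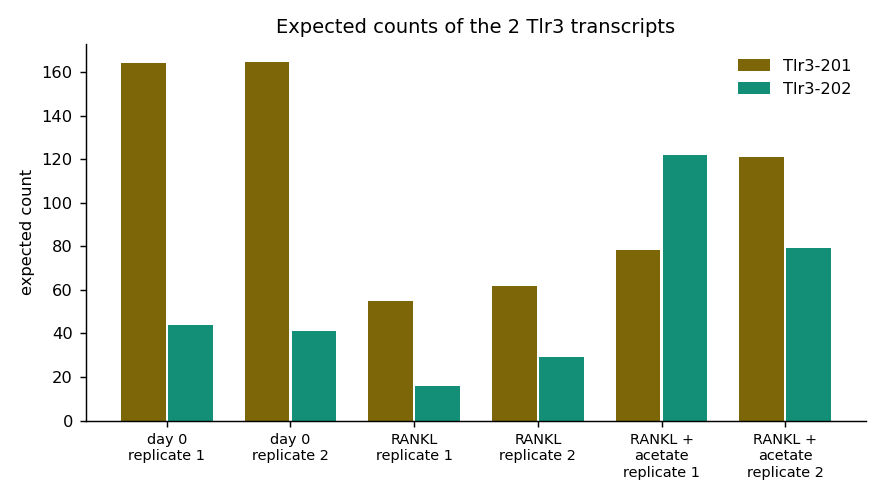
RSEM expected counts (bars from 0) of Tlr3-201 and Tlr3-202 in each of the 6 libraries. Tlr3-201 is the taller bar in 5 of 6 libraries, and Tlr3-202 is taller in replicate 1 of RANKL with acetate.

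Most tested partners of the surface receptors were lowered by RANKL and raised by acetate beside it. Of 6 tested of 7 listed, 5 were lowered and 1 raised by RANKL (median log2 fold change -1.52), and 4 were raised and 1 lowered by acetate (0.51). For this and the following lists, RANKL lowered 33.5% and raised 32.8% of all genes tested. Acetate beside RANKL raised 16.7% and lowered 13.7% of them. No list was tested as a set. Cd36, a scavenger receptor that works with TLR2 and TLR6, went from a mean of 1399 CPM at day 0 to 181.3 with RANKL and 359.8 with acetate, changes of -2.95 ± 0.04 and 0.99 ± 0.04 (adjusted p = 1.03e-35 and 1.06e-20). Ly86, which encodes MD-1, went from 148.5 to 14.9 and 36.5 CPM (-3.32 ± 0.08 and 1.29 ± 0.10). Its partner Cd180, a receptor relative, had changes of -1.53 ± 0.05 and 0.47 ± 0.06, and the integrin chain Itgam had -1.50 ± 0.04 and 0.55 ± 0.04. Ly96, which encodes MD-2, the part of the TLR4 complex that binds LPS, fell with RANKL (8.77 to 4.09 CPM, -1.10 ± 0.23, adjusted p = 8.55e-05) and was at 4.52 CPM with acetate (0.15 ± 0.25, adjusted p = 0.713). The exception in both contrasts was Hmgb1, a nuclear protein that can act as a ligand, at 0.41 and -0.11.

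Genes that fold and carry the receptors fell with RANKL in 7 of 9 cases and none rose (median -0.37). With acetate 5 rose and 1 fell (0.17). Unc93b1, the chaperone that takes nucleic acid-sensing receptors to endosomes, was at 341.1, 164.0 and 221.4 CPM in the 3 groups (-1.06 ± 0.04 and 0.43 ± 0.05, adjusted p = 5.67e-21 and 1.41e-09). Slc15a3, an endolysosomal peptide and histidine transporter, was at 357.8, 33.3 and 107.2 CPM (-3.43 ± 0.06 and 1.69 ± 0.07). Hsp90b1, the chaperone that folds most Toll-like receptors, changed by -1.03 ± 0.03 and 0.28 ± 0.03, and Lrrc59 rose with acetate by 0.17 ± 0.04, while Ap3d1, an adaptor complex subunit, was the 1 gene that fell with acetate (-0.12 ± 0.04, adjusted p = 0.0278). The zero count of raised genes with RANKL is by edgeR, where no gene of the list had a log2 fold change above 0.

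All 6 proteases listed as able to trim endosomal receptors were called in both contrasts, 5 lowered and 1 raised by RANKL (median -1.09) and the same 5 raised and the same 1 lowered by acetate (0.52). Lgmn, the asparagine endopeptidase, went from 1416 to 235.5 and 353.0 CPM (-2.59 ± 0.04 and 0.58 ± 0.04). Ctsl, a cathepsin, changed by -0.40 ± 0.03 and 0.70 ± 0.03, and Ctsb by -1.97 ± 0.02 and 0.45 ± 0.02. The exception was Ctsk, the collagen-degrading cathepsin of osteoclasts, with 8.13 ± 0.11 and -2.28 ± 0.05.

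Adaptors couple the receptors to kinases. Myd88, used by most Toll-like receptors, was at 86.0, 90.8 and 91.0 CPM, with differences of 0.08 ± 0.07 and 0.00 ± 0.07, neither called (adjusted p = 0.322 and 0.978). Tirap, which bridges MyD88 to TLR2 and TLR4, was at 31.0, 34.0 and 31.4 CPM, also not called. Ticam1, which encodes TRIF, fell with RANKL from 35.5 to 16.85 CPM (-1.08 ± 0.12, adjusted p = 6.18e-10) and was at 17.3 with acetate (0.04 ± 0.13, adjusted p = 0.854). Ticam2, which encodes TRAM, the adaptor that links TLR4 to TRIF, fell from 23.3 to 6.005 CPM (-1.95 ± 0.16) and was at 10.98 with acetate (0.87 ± 0.17, adjusted p = 1.71e-04), the 1 adaptor raised. With Pik3ap1 (-0.90 ± 0.05), 3 of 5 tested of 7 listed were lowered by RANKL (median -0.90), and the median with acetate was 0.04.

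Kinases and ubiquitin ligases pass the signal on. Of 20, 8 were lowered and 2 raised by RANKL (median -0.14), and 5 were raised and 1 lowered by acetate (0.01). Among all genes tested, 33.5% were lowered and 32.8% raised by RANKL, and 16.7% were raised and 13.7% lowered by acetate. Irak1 and Traf6 were called in neither contrast. Ikbke, a kinase that activates interferon regulatory factors, was at 116.4, 59.8 and 121.9 CPM (-0.96 ± 0.06 and 1.03 ± 0.06, adjusted p = 1.64e-15 and 1.58e-15). Peli2 and Map3k8, a ubiquitin ligase and a kinase of the ERK branch, rose with acetate by 0.86 ± 0.22 and 0.85 ± 0.22, whereas Ikbkg, the regulatory subunit of the IkB kinase complex, fell by 0.30 on the log2 scale (adjusted p = 6.28e-04). Traf3 rose with RANKL from 51.7 to 128.9 CPM (1.32 ± 0.07) and Irak4 fell (-0.72 ± 0.10).

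Inhibitors of the pathway split into 8 raised and 7 lowered of 18 with RANKL (median 0.19), and 6 raised and 3 lowered with acetate (-0.03). All genes tested also split, with 32.8% raised and 33.5% lowered by RANKL, and 16.7% raised and 13.7% lowered by acetate. Nfkbia, the IkB-alpha inhibitor of NF-kB and one of its targets, went from 52.1 to 305.8 CPM with RANKL (2.55 ± 0.05) and was at 299.4 with acetate (-0.03 ± 0.04, adjusted p = 0.647). Tnip1, a partner of the A20 enzyme, rose with RANKL by 2.40 ± 0.07 and fell with acetate by 0.38 on the log2 scale. Lgals9 (-1.78 ± 0.06 and 0.93 ± 0.06), Nlrc5 (-0.95 ± 0.09 and 1.18 ± 0.09) and Nlrc3 (-1.66 ± 0.15 and 1.21 ± 0.16) were lowered by RANKL and raised by acetate.

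Of 12 transcription factors, 7 were lowered and 2 raised by RANKL (median -0.38), and 7 were raised and 2 lowered by acetate (0.35). Irf7, which drives interferon genes downstream of TLR7 and TLR9, was at 123.1, 111.0 and 230.9 CPM (-0.15 ± 0.05 and 1.06 ± 0.05), above day 0 with acetate. Atf3 changed by -3.78 ± 0.12 and 1.48 ± 0.15, and Cebpb by -0.56 ± 0.09 and 1.08 ± 0.08. Fos was the opposite, at 3.35 ± 0.06 and -0.36 ± 0.05.

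Genes that LPS is known to induce were not all measurable, and 11 of 20 were tested. Of these, 5 were raised and 6 lowered by RANKL (median -0.74), and 8 were raised and 1 lowered by acetate (1.32). Tnf was at 32.0, 11.3 and 28.4 CPM (-1.50 ± 0.13 and 1.32 ± 0.13), and the acetate level was not called different from day 0. Ccl4, a chemokine, was at 115.4, 5.05 and 29.0 CPM (-4.51 ± 0.11 and 2.52 ± 0.13), and Ccl3 changed by -3.42 ± 0.10 and 1.79 ± 0.12. Cxcl10, an interferon-responsive chemokine, rose in both contrasts (28.1, 122.2 and 680.3 CPM), and Icam1, an adhesion molecule, rose with RANKL (1.997 ± 0.06) and was the 1 gene that fell with acetate (-0.19 ± 0.05, adjusted p = 0.00207). Il1b held 0 to 7 counts per library, Il6 0 to 1 and Ifnb1 0 to 2, too few for a test.

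**Figure D5:**
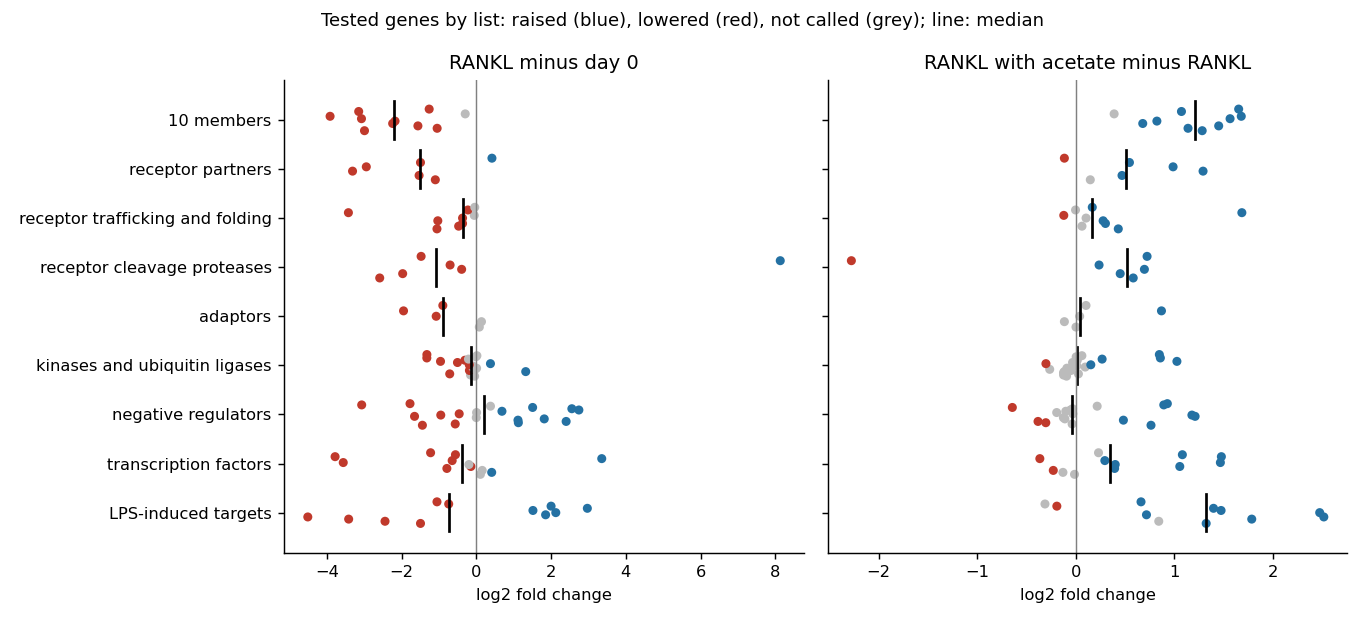
Log2 fold changes of the tested genes of each list (horizontal axes) for RANKL against day 0 (left) and RANKL with acetate against RANKL (right); points are genes, coloured raised, lowered or not called, and black lines are medians. The medians of the 10 genes are -2.21 and 1.21, and those of the kinases lie close to 0.

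The 3 further mouse receptor genes were looked up. Tlr5, the flagellin receptor, held 47 and 43 counts at day 0, 3 and 3 with RANKL, and 19 and 17 with acetate, with changes of -4.06 ± 0.49 and 2.68 ± 0.58 (adjusted p = 7.62e-09 and 4.57e-04). The RANKL value rests on 6 counts in all. Tlr11, at 0 to 5 counts, and Tlr12, at 0 to 3, were not tested.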

How the data were processed

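Gene-level and transcript-level tables were used. A miRNeasy kit gave the RNA, and libraries were prepared by a SMARTer protocol for mRNA, per the labels' protocols. The submitters' processing notes name Trimmomatic 0.39, STAR (no version), RSEM 1.3.1, DESeq2 1.26.0 and the build GRCm38 (mm10), without roles. The authors deposited expected counts (RSEM estimates, not normalized), TPM (scaled for length to a common library total) and FPKM (also adjusted for length and library size). Of the deposited expected counts, 97.1% lay within 0.005 of a whole number, and they were rounded before testing.

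Groups came from the sample titles. Per group, the title ending in 1 is replicate 1 and the title without a number is replicate 2. In R 4.3.3, edgeR 4.0.16 was run on all 6 libraries with filterByExpr (minimum count 10, minimum total 15), TMM scaling and the quasi-likelihood test, which had 3 residual degrees of freedom, 29.5 prior ones, and a biological coefficient of variation of 3.58%. P-values were adjusted by Benjamini-Hochberg over 12224 genes in each of the 3 comparisons, and calls were made under 0.05. Standard errors were computed as the absolute log2 fold change over the square root of F. Alternatives used DESeq2 1.42.0, limma 3.58.1, other scalings, filters and units, and each library left out. The script was tested on simulated data. Named genes were the 10 members, up to 4 genes with the smallest adjusted p per list and contrast, the 3 genes nearest to each member, and exceptions in small counts. Some genes were named for their role after their values were seen (Ly96, Myd88, Tirap, Irak1, Traf6, Il1b, Il6 and Ifnb1). The members and lists were chosen with earlier results of these data known. Promoters came from RefSeq, and coordinates and transcripts from GENCODE M21.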

Additional observations from a re-analysis of the deposited data

How the results depend on the processing

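The counts of called genes among the 10, 9 lowered by RANKL, 9 raised by acetate, and 6 lowered and 1 raised in the acetate libraries against day 0, were the same under other settings in edgeR, limma-voom and DESeq2, and with each library left out, where they ranged from 9 to 9, 9 to 9, 6 to 6 and 1 to 1. Leaving out a library leaves a group with 1, assumed to vary like the others. On log2 TPM and FPKM with limma, 8 genes in place of 9 were raised by acetate, since Tlr6 was not called, at 0.22, 0.20 and 0.20 on the log2 scale (adjusted p = 0.739, 0.724 and 0.751). Of the alternatives computed for the results on these genes, 505 kept direction and side of the threshold, 3 did not pass it, and 5 changed sign. Those 5 concern differences that were not called in any setting. With each library left out, Tlr9 ranged from -0.72 to 0.091 for RANKL against day 0 and from -0.202 to 0.479 for the acetate libraries against day 0, and Tlr3 was at 0.01 on log2 FPKM for the latter. With the replicate block the counts stayed at 9, 9, 6 and 1. In gene-level log2 CPM, the differences between replicates were not correlated between groups (correlations of -0.027, -0.063 and -0.007 over 12224 genes). Count noise of low genes can hide a shared deviation in such a correlation, so it cannot decide whether same-numbered libraries are paired. At the transcript level, the share of Tlr1-201 in the Tlr1 counts was higher in replicate 1 than in replicate 2 of each group. Over all genes, 3717 were called for acetate beside RANKL, against 2462 with DESeq2 (of 11987 with an adjusted p), 1843 and 1908 on log2 TPM with pseudocounts of 0.1 and 1, and 1894 on log2 FPKM; the cause was not tested. FPKM moved the median of all genes for RANKL against day 0 to 0.127. Few counts limit the values of Tlr9 (29 to 53) and Tlr5 (3 to 47), and Tlr11 and Tlr12 were too low to test.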

Other observations

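For each of the 10 genes, the tested genes with the most similar pattern over the 6 libraries were listed by the distance between library profiles of log2 CPM, each centred on its own mean, which describes these 6 libraries from 3 groups and says nothing of shared control. Tlr2 lay nearest to Ikbke (0.145), Trim30d (0.173) and Plekhg1 (0.231), and Tlr3 to Tnf (0.145), Stat2 (0.332) and Il10ra (0.342). Cd14 lay nearest to Gm12250 (0.211), Ifi204 (0.211), an interferon-inducible gene, and Gm1966 (0.232). Nearest to Tlr4 were Trp53inp2 (0.064), Filip1l (0.147) and Arl4c (0.16), and to Tlr6 Ogfrl1 (0.105), Col14a1 (0.223) and Fads1 (0.255). Tlr7 lay nearest to Themis2 (0.274), Klf2 (0.322) and Ppfia4 (0.323), Tlr8 to Cmklr1 (0.349), Iqgap2 (0.394) and Irf8 (0.418), a factor of the macrophage lineage, and Tlr13 to Dhrs3 (0.173), Cxcl14 (0.18) and Pvrl4 (0.196). Tlr9, at low counts, lay nearest to 2610507I01Rik (0.298).

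Tlr1 lay nearest to Fam114a1 (0.155), ahead of Trpm2 (0.263) and 2900026A02Rik (0.267). Fam114a1 changed by -3.09 with RANKL and 1.31 with acetate beside RANKL on the log2 scale. It is also the next protein-coding gene beyond Tlr6 on chromosome 5 (chr5:64970071-65041886, plus strand, GRCm38), 9973 bases from Tlr6 and 36507 from Tlr1. Among the 10 genes themselves the closest pairs were Tlr1 with Tlr7 (0.401) and Tlr4 with Tlr6 (0.41), and the farthest was Tlr8 with Tlr9 (3.785).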
